A study of Mus musculus with 6 samples.

Results

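The genes described here serve the uptake of apoptotic cells by macrophages, in sorted cardiac myeloid cells 3 days after myocardial infarction. They were chosen by name as 10 genes in 3 roles: 4 receptors (Mertk, Axl, Tyro3 and Lrp1), 3 bridging molecules (Gas6, Pros1 and Mfge8) and 3 genes of the engulfment machinery (Elmo1, Dock1 and Rac1). Every probe annotated with one of these symbols was taken, which gave 28 of the 45281 probes on the array. The cells were CD11b+Ly6G-, a gate for macrophages and monocytes meant to leave out neutrophils, from hearts of ICR mice, an outbred strain, with both sexes in the material. The left anterior descending coronary artery was tied at day 1 after birth (P1) in one group and at day 14 (P14) in the other, with 3 arrays for each age. All arrays are therefore from injured hearts, and no uninjured or untreated group was analysed here. The labels do not state whether the replicates of an age are different animals, litters or pools, so a p-value here refers to the variation among these arrays and may include technical variation alone.

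Dying cells expose phosphatidylserine on their surface, and phagocytes read it either directly or through soluble bridging proteins. Gas6 and protein S, the product of Pros1, bind phosphatidylserine at one end and the TAM receptor tyrosine kinases Tyro3, Axl and Mertk at the other, whereas Mfge8 joins phosphatidylserine to integrins. Lrp1 is a large endocytic receptor that binds many ligands and takes part in corpse uptake, and inside the cell Elmo1 and Dock1 form an exchange factor that loads the GTPase Rac1 and drives the actin cup around the corpse. Macrophages of the infarcted heart clear dead cardiomyocytes and neutrophils by this route.

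The ages differed in parts of the system and in opposite directions. Lrp1 and Elmo1 were lower in P1, and Pros1 and Rac1 were higher. Mertk, Axl, Gas6 and Dock1 did not pass the test, Mfge8 passed with 1 of its 2 probes, and Tyro3 was not above background. Each gene was read through the brightest of its probes above background, and called when limma's adjusted p, over all genes tested, was under 0.05. Of the 9 members tested, 2 were called higher and 2 lower, beside 10.7% of all 10258 genes called higher and 9.85% called lower in P1 (20.5% in all). The median log2 difference, P1 minus P14, was 0.24 over the 9 members and 0.01 over all genes, and the median absolute difference was 0.38 and 0.14. These medians were not matched for brightness. By mean intensity Dock1 lay at percentile 36.6 of all genes tested and the other members at 61.6 to 95.5. The groups did not overlap in 4 of the 9 members, against 39.1% of all genes.

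**Figure D1:**
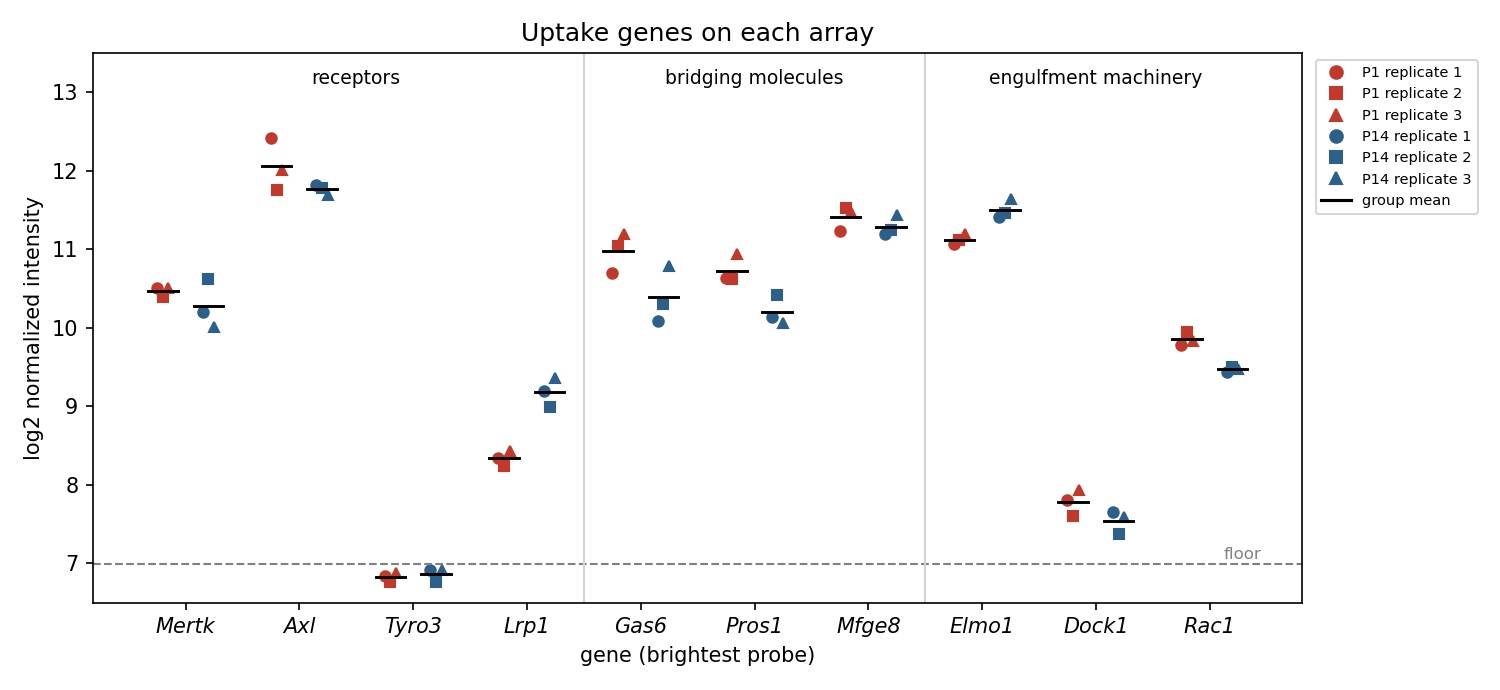
Log2 normalized intensity of the brightest probe of each member on every array, with P1 in red, P14 in blue, a symbol for each replicate and a bar for the group mean; the dashed line is the floor above background. The P1 and P14 points of Lrp1, Pros1, Elmo1 and Rac1 do not overlap, and Tyro3 lies below the floor on all 6 arrays.

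Of the receptors, Lrp1 was the one called. Its intensity was 325.8, 301.8 and 344.2 on P1 replicates 1 to 3 and 584.1, 508.7 and 659.1 on P14 replicates 1 to 3. All P1 arrays were below all P14 arrays, with a wide gap between the groups. It was 1.80-fold lower in P1 (log2 difference -0.84 ± 0.105, SE, n = 3 arrays per group, adjusted p = 0.00274, limma), a size exceeded by few genes, at percentile 98.5 of all absolute differences. The call was kept under all 15 alternatives, with a log2 difference from -0.96 with normexp background correction to -0.75 without P14 replicate 3.

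Mertk, the TAM receptor that mature macrophages rely on for corpse uptake, did not pass. Its intensity was 1454.9, 1349 and 1453.6 on the P1 arrays and 1173.8, 1580.2 and 1034.4 on the P14 arrays. The P1 arrays lay close together, whereas P14 replicate 2 was above every P1 array and the other two P14 arrays below them. The log2 difference was 0.19 (95% interval -0.14 to 0.52, adjusted p = 0.398, limma). Without P14 replicate 2 it was 0.36 with an adjusted p of 0.0482, while without P14 replicate 3 it was 0.059. With each array other than P14 replicate 2 left out it did not pass (adjusted p from 0.416 to 0.802).

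Axl, the TAM receptor induced under inflammation, was read by 2 probes. Its brighter probe gave 5475, 3464.5 and 4136.7 on the P1 arrays and 3614.6, 3533.3 and 3309.6 on the P14 arrays. P1 replicate 1 stood above the rest, and P1 replicate 2 lay inside the P14 range. The log2 difference was 0.30 (95% interval -0.05 to 0.65, adjusted p = 0.204), and 0.12 without P1 replicate 1. The other Axl probe was above the floor only on P14 replicates 1 and 3, and so was not tested. Tyro3, the third TAM receptor, gave 108.5 to 117.2 on the P1 arrays and 109 to 120.6 on the P14 arrays, below the floor of 128 throughout. Its level could not be compared.

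The bridging molecules all had positive log2 differences, but with different support. Protein S, encoded by Pros1, is a plasma anticoagulant that macrophages also make. Its intensity was 1585.2, 1570.1 and 1960.2 on the P1 arrays and 1121.5, 1364.4 and 1064.6 on the P14 arrays. All P1 arrays exceeded all P14 arrays, and Pros1 was 1.44-fold higher in P1 (0.53 ± 0.123, adjusted p = 0.0220). The call was lost on leaving out P1 replicate 3 (adjusted p = 0.0683), P14 replicate 1 (0.0703) or P14 replicate 3 (0.0517), with log2 differences of 0.42, 0.49 and 0.46, and over all 15 alternatives the adjusted p ran from 0.0120 to 0.0703.

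Gas6 had the larger fold but also the larger spread. It gave 1663.6, 2101 and 2352.4 on the P1 arrays and 1090.4, 1260.3 and 1772 on the P14 arrays. P14 replicate 3 exceeded P1 replicate 1, so the groups overlapped. The log2 difference was 0.59 (95% interval 0.15 to 1.02, 1.50-fold, adjusted p = 0.0638, unadjusted p = 0.0149), which did not pass. It passed without P14 replicate 3 (0.78, adjusted p = 0.0148), without P1 replicate 1 (0.72, adjusted p = 0.0457) and with array weights (0.69, adjusted p = 0.0216), while over all 15 alternatives the adjusted p ran from 0.00864 to 0.188.

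Mfge8, the milk fat globule protein, has 2 probes annotated to different RefSeq transcripts, and they differed in outcome. The brighter probe gave 2406.5, 2936.5 and 2838.4 on the P1 arrays and 2334.1, 2423.8 and 2775.9 on the P14 arrays, with overlapping groups. Its log2 difference was 0.12 (95% interval -0.12 to 0.35, adjusted p = 0.471). The other probe gave 520.6, 615.8 and 582.2 on the P1 arrays and 408.8, 438.4 and 420.8 on the P14 arrays, without overlap. In the fit of all probes above the filter it was 1.35-fold higher in P1 (0.44 ± 0.0793, adjusted p = 0.0111), a call kept under all alternatives run on probes. The log2 differences of the 2 probes were 0.32 apart, a gap that was not itself tested, and the average of both probes gave Mfge8 a difference of 0.28 (adjusted p = 0.0561).

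Receptors set against bridging molecules thus gave median log2 differences of 0.19 (range -0.84 to 0.30, 3 of 4 members tested) and 0.53 (range 0.12 to 0.59, 3 of 3). The bridging median exceeded the receptor median by 0.34, and by 0.23 to 0.46 when single arrays were left out. For scale, the bridging minus receptor median of a single array had an SD of 0.313 between arrays of one age. That SD is for 1 array and is not the error of the gap between ages. No test was made of this contrast, because the members were chosen with results known. The genes of the TAM ligands had log2 differences of 0.59 and 0.53, and those of their 2 measurable receptors 0.19 and 0.30. The 95% intervals of all 4 shared the stretch from 0.24 to 0.52.

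**Figure D2:**
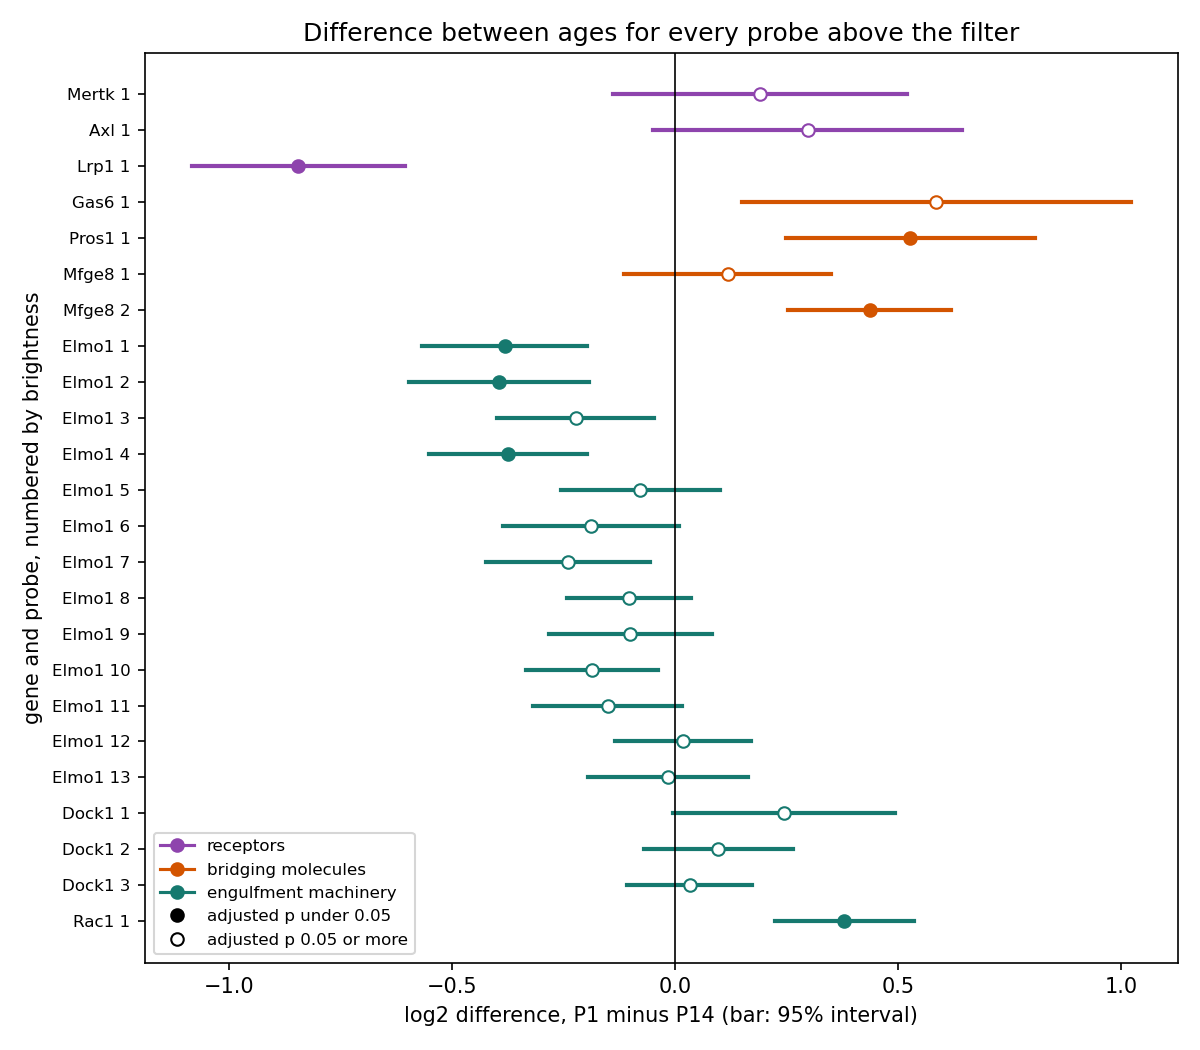
Log2 difference, P1 minus P14, with 95% interval for each of the 24 member probes above the filter, coloured by role and filled where the adjusted p in the fit of all probes was under 0.05. Lrp1 and Elmo1 probes 1, 2 and 4 lie below 0 and Pros1, Mfge8 probe 2 and Rac1 above, which are the 7 called probes.

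The engulfment machinery split between its members. Elmo1, the scaffold of the exchange factor complex, gave 2137, 2218.9 and 2334.1 on the P1 arrays and 2724.7, 2820.4 and 3188.8 on the P14 arrays with its brightest probe. All P1 arrays were below all P14 arrays, and Elmo1 was 1.30-fold lower in P1 (-0.38 ± 0.0820, adjusted p = 0.0166). The call was kept under all 15 alternatives, although averaging all its kept probes gave a difference of -0.19 (adjusted p = 0.0462). Rac1, the GTPase at the end of the pathway, gave 879.9, 982.4 and 912.9 on the P1 arrays and 692.7, 724.1 and 714.6 on the P14 arrays. Its groups did not overlap either, and it was 1.30-fold higher in P1 (0.38 ± 0.0704, adjusted p = 0.0102), again under all 15 alternatives.

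Dock1, the catalytic partner of Elmo1, was dim. Its brightest probe gave 223, 195 and 245 on the P1 arrays and 201.4, 165.3 and 192.9 on the P14 arrays, with P14 replicate 1 above P1 replicate 2. The log2 difference was 0.24 (95% interval -0.01 to 0.50, adjusted p = 0.154). Its other two probes above the filter had 0.10 and 0.03, and 0 of the 3 were called by limma, with 0 at an unadjusted p under 0.05 as well. Background was not subtracted from these intensities, so differences of such dim probes are understated.

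Elmo1 was the member with most probes, 14, of which 13 passed the filter. They read one gene from the same RNA and are not independent. Of the 14, 13 had a negative log2 difference, and among the 13 above the filter P1 lay below P14 without overlap in 9, against 36.4% of all 18571 probes with no overlap in either direction. In the fit of all probes 3 of the 13 were called, all lower in P1, beside 8.50% of all probes called lower. Over the 24 member probes above the filter 3 were called higher and 4 lower, against 17.0% of all probes called and 8.46% called higher.

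The 12 tested Elmo1 probes other than the brightest were dim, with intensities from 117.4 to 285.5. Probe 2 gave 185.1, 202.2 and 199.9 on the P1 arrays and 234, 285.5 and 254.1 on the P14 arrays. Probe 4 gave 151.4, 159.4 and 148.2 on the P1 arrays and 216.5, 191.3 and 188 on the P14 arrays. Both were called, with log2 differences of -0.39 (adjusted p = 0.0211) and -0.37 (adjusted p = 0.0165), values near that of the bright probe although they lie close to background. The calls of both were lost without P1 replicate 3 (adjusted p = 0.0610 and 0.0635), and that of probe 2 also without P1 replicate 1 (0.0599) or P14 replicate 2 (0.0582). With normexp background correction the differences were -0.51 and -0.53, against -0.39 for the bright probe. The other 10 were not called, and their log2 differences lay between -0.24 and 0.02. The brightest probe and probe 13 are annotated to one RefSeq transcript and the remaining 12 to another. The annotation used gives no probe sequence, so which of the 2 Elmo1 starts a probe follows was not determined.

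**Figure D3:**
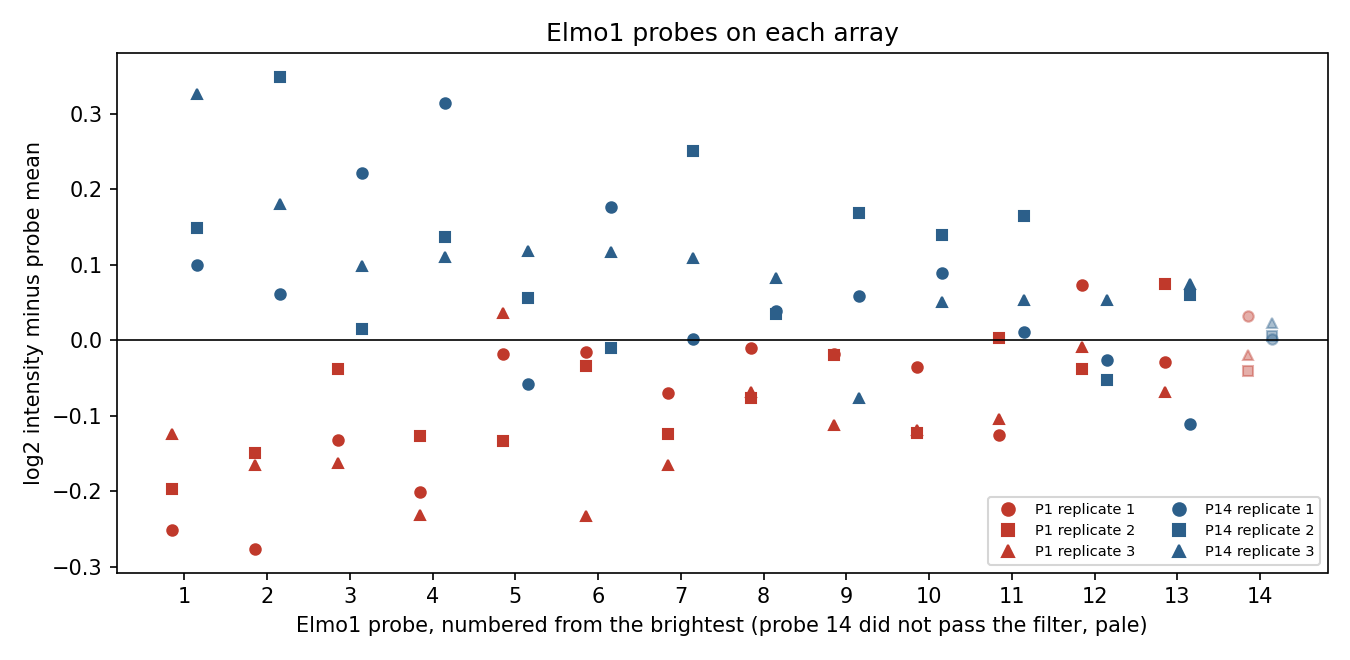
Log2 intensity of each of the 14 Elmo1 probes on every array, as the deviation from the probe's mean, with probes ordered from the brightest and P1 in red, P14 in blue. P1 points lie below P14 points without overlap in 9 of the 13 probes above the filter, and the spread between ages narrows toward the dimmer probes.

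Because Elmo1 has 2 annotated starts and probes of 2 transcripts, the sequence upstream of both is shown, beside that of members called in either direction. RefSeq (GRCm38.p6) gave windows for 9 of the 10 members, 10 windows in all, and Rac1 had none. The 250 bases before the start are printed 5′ to 3′ for both Elmo1 starts, for Lrp1, the other member lower in P1, and for Pros1, which was higher. Capitals mark 3 motifs searched on both strands: the GC box GGGCGG or CCGCCC, the PU.1 core GAGGAA or TTCCTC, and the TATA box TATAAA or TTTATA, with a longer run of capitals where matches overlap.
Elmo1 upstream start, chr13:20090257-20090506, plus strand: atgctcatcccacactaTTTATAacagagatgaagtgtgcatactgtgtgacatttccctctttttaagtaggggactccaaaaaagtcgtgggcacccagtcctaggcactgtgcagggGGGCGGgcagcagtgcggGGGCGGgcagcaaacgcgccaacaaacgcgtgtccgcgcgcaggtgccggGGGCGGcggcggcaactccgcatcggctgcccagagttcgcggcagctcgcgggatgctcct
Elmo1 downstream start, chr13:20472740-20472989, plus strand: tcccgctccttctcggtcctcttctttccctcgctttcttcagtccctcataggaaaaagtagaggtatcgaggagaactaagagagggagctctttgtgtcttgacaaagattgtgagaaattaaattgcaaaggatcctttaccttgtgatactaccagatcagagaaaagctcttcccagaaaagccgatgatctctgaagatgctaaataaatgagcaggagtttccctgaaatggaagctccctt
Lrp1, chr10:127621149-127621398, minus strand: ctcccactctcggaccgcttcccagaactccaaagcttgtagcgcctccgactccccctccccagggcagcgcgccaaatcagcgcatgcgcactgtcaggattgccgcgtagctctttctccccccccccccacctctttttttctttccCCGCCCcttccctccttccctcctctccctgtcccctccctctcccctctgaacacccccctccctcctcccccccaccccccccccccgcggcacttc
Pros1, chr16:62854057-62854306, plus strand: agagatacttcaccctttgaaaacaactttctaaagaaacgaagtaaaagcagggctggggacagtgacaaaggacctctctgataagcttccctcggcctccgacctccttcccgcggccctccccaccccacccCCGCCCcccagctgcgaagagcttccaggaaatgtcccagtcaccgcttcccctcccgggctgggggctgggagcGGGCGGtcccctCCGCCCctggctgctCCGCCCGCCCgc
The GC box was in 9 of the 10 member windows, against 32.7% of 32851 windows of all genes. The PU.1 core was in 3 (Axl, Dock1 and Mfge8), against 23.3%, and the TATA box in 1, the upstream Elmo1 window, against 12.4%. The Elmo1 starts lie 382 kb apart on chromosome 13. The upstream window has 61.6% G and C and 3 GC boxes, while the downstream one has 43.6% and none of the motifs. Lrp1 and Pros1, which differed in opposite directions, have 67.2% and 64.4% G and C, against a median of 52.4%. A match describes the letters only and says nothing about binding of a factor.

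Within P14 some members moved together across arrays. P14 replicate 3 was the highest P14 array for Lrp1, Gas6, Mfge8 and Elmo1 and the lowest for Mertk, Axl and Pros1. It was also the array set apart on the second principal component of all genes (15.3% of the variance, score -15.4, against 8.16 and 5.59 for P14 replicates 1 and 2), while the first component (59.3%) separated the ages. Erythroid markers (4 genes) had a mean log2 deviation from their gene means of 0.51 on P14 replicate 3, against -0.48 and -0.16 on P14 replicates 1 and 2. Platelet markers (2 genes) had 0.31 there, against -0.35 and 0.072. In neither list was a gene called between the ages. The part of such cells in the values of the members was not tested. With 3 arrays a group these orders are a description only.

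Markers of other cell types moved with age in the same material, beside each of the values above. Beside the marker counts here stand 10.7% of all genes called higher and 9.85% called lower. Neutrophil genes were called in all 8 cases that could be tested, 7 of them higher in P1 and 1 lower. The lower one was Retnlg, with a log2 difference of -1.63 (adjusted p = 0.00145, limma), so the list was not uniform. The summed intensity of the 8 was 15081 to 21491 on the P1 arrays and 8475 to 12023 on the P14 arrays. S100a8 was the brightest of the 8 on every array and weighs most in these sums (geometric means of 12113 in P1 and 4840 in P14). Mmp8 and Cxcr2 were below the filter. Mpo and Ngp passed it through the P1 arrays alone, with 3 P1 and 0 P14 arrays above the floor. For these genes the filter itself favoured a higher value in P1. Of 9 cardiomyocyte genes, 7 were higher in P1, with sums of 5727 to 12807 against 2654 to 2952, and Myh7 and Ryr2 were below the filter. Among the 7, Myl7 passed the filter through the P1 arrays alone (3 P1 and 0 P14 arrays above the floor). Fibroblasts and endothelial cells are known to express several uptake genes too. Of 9 fibroblast genes 2 were higher in P1. Their sums of 2839 to 4375 against 2828 to 3149 overlapped, while their mean log2 deviations, -0.061 to 0.33 against -0.20 to -0.082, did not, with Postn and Ddr2 below the filter. Of 11 endothelial genes, all above the filter, 0 were called by limma and 1 had an unadjusted p under 0.05, with sums of 2782 to 4345 against 2391 to 3218. The part of these cells in the differences of the uptake genes was not tested, and in sorted bulk material a change in the mix of cells cannot be told apart from a change in RNA per cell. Without P1 replicate 2, the array highest in cardiomyocyte, fibroblast and endothelial markers, Lrp1, Pros1, Elmo1 and Rac1 kept their calls, with log2 differences of -0.79, 0.58, -0.38 and 0.34. Without P1 replicate 3, the array highest in neutrophil markers and next highest in cardiomyocyte markers (summed intensities of 21491 and 11843), Lrp1, Elmo1 and Rac1 kept their calls and Pros1 did not (0.42, adjusted p = 0.0683). In both refits the remaining P1 arrays still had higher neutrophil and cardiomyocyte sums than every P14 array. Calls kept or lost in them therefore do not address the mix of cells.

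**Figure D4:**
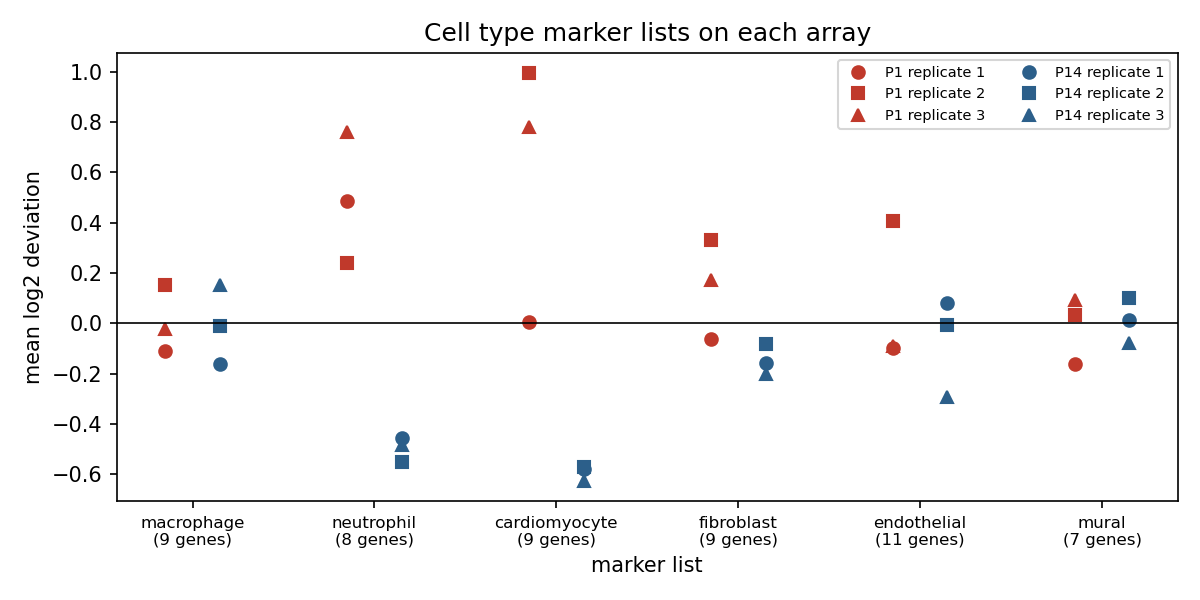
Mean log2 deviation from the gene means over each marker list with at least 5 tested genes, for every array, with P1 in red and P14 in blue. Neutrophil and cardiomyocyte markers are above 0 on the 3 P1 arrays and below 0 on the 3 P14 arrays, fibroblast markers are higher on the 3 P1 arrays without overlap but by less, and macrophage, endothelial and mural markers overlap between the ages.

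The macrophage label was checked against 10 markers, of which 9 were above the filter. Csf1r, the receptor of the macrophage growth factor, was called higher in P1 (0.82, 1.77-fold, adjusted p = 0.00228). The other 8 were not called, and the sums over the 9 were 67655 to 70388 against 64161 to 72077. Cd14 and Lyz2 were the brightest of the 9, so the sums mostly follow these 2 genes. The log2 difference was -0.23 for the gate gene Itgam (CD11b, adjusted p = 0.310) and -0.34 for Adgre1 (F4/80, adjusted p = 0.138, unadjusted p = 0.0477, limma). Neither passed with any 1 array left out, with ranges of -0.37 to -0.14 for Itgam and -0.48 to -0.19 for Adgre1, which had -0.14 when its probes were averaged.

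Other genes of the pathway were read from 8 lists. Counting each gene once, 94 of 119 were tested, and 13 were higher and 16 lower in P1, together 30.9% against the 20.5% of all genes, with a median log2 difference of -0.0045. The counts of single lists below stand beside the same shares of all genes, 10.7% called higher and 9.85% called lower. The lists are short and none was tested as a set, so their counts are a description only. Among 18 other uptake receptors 1 was higher and 5 were lower. Cd300lf, a phosphatidylserine-binding receptor of myeloid cells, had -0.77 (adjusted p = 0.0308, and 0.0974 without P14 replicate 2), Havcr2, which encodes Tim-3, had -0.70 (adjusted p = 0.0144, and 0.0513 without P14 replicate 1) and Cd93 had -0.48 (adjusted p = 0.0279, and 0.0888 without P14 replicate 2). The Cd300lf call was lost without any 1 of 5 arrays and the Cd93 call without any 1 of 4, and with no filter on dim probes both missed (adjusted p = 0.0670 and 0.0501). The integrin subunits to which Mfge8 binds were looked up after their values were seen: Itgb5 was lower in P1 (-0.48, adjusted p = 0.0310, lost without any 1 of 3 arrays, with 0.0983 without P1 replicate 3, and with no filter on dim probes, 0.0561), Itgav had 0.11 (adjusted p = 0.732) and Itgb3 was below the filter.

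Among 10 other bridging and opsonin genes 1 was higher and 3 were lower. The ficolin gene Fcna, with 2.68 (adjusted p = 0.00219), was the higher one, and Thbs1, which encodes thrombospondin, a bridge to CD36 and integrins, had -0.91 (adjusted p = 0.00249). Lgals3, a galectin that opsonises cells, had -0.47 (adjusted p = 0.00492). The called genes of this list thus lay on both sides of 0. Of the 3 bridging members, all with differences above 0, 1 was called in the gene fit.

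Of 20 other engulfment genes 3 were higher and 2 lower. Was, an activator of actin branching, had 0.63 (adjusted p = 0.00259), Rac2, the Rac GTPase of blood cells, had 0.48 (adjusted p = 0.00674), and the exchange factor Vav1 had -0.41 (adjusted p = 0.0136). The other called genes were Crk, an adaptor upstream of Dock1, with 0.37 (adjusted p = 0.00947, but -0.0053 when its probes were averaged), and Dock4, with -0.30 (adjusted p = 0.0433, lost without any 1 of 5 arrays and, at -0.11, when its probes were averaged). Dock2 and Elmo2, paralogs of Dock1 and Elmo1 looked up after their values were seen, had -0.09 (adjusted p = 0.581) and -0.01 (adjusted p = 0.960). The Dock2 probe was dim, with 160.8 to 203.3 over the arrays, so its difference is understated like that of Dock1. Of 5 find-me receptors tested, 2 were higher: Cx3cr1, the fractalkine receptor, with 1.61 (adjusted p = 0.00263), and Gpr34, a lysophosphatidylserine receptor, with 0.63 (adjusted p = 0.0241, and 0.0761 without P14 replicate 1; lost also without P1 replicate 3 or P14 replicate 2).

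Corpse degradation and efflux gave 3 higher and 3 lower of 20. Lipa, the lysosomal acid lipase, had 0.75 (adjusted p = 0.00504), and Npc1, the lysosomal cholesterol exporter, had -0.75 (adjusted p = 0.00255). Slc2a1, the glucose transporter Glut1, had -0.75 (adjusted p = 0.00475). Of 8 transcription factors linked with uptake genes Klf2 was higher (0.87, adjusted p = 0.0119) and Klf4 lower (-0.66, adjusted p = 0.00673, but -0.27 with an adjusted p of 0.120 when its probes were averaged). Of 8 genes listed under TAM signalling 2 were higher and 3 lower. Vav1, Plcg2, a phospholipase (-0.35, adjusted p = 0.0335), and Socs3, a feedback inhibitor of cytokine signalling that was named outside the rule (-0.22, adjusted p = 0.0404, lost without any 1 of the 6 arrays), were lower. The 2 higher genes were Twf2, an actin monomer binder (0.29, adjusted p = 0.0182), and Twf1 (0.24, adjusted p = 0.0496). Whether these 2 act below TAM receptors was not established here, and no other gene of the list was called higher. The Plcg2 and Twf2 calls were each lost without any 1 of 4 arrays, with adjusted p of at most 0.109 and 0.0610. The Twf1 call, close to the threshold, was not recomputed under the alternatives, and its probe was dim (147.9 to 189). Of the 6 tested genes of restraint and receptor shedding 0 were called by limma and 2 had an unadjusted p under 0.05. Sirpa, the receptor of the do-not-eat-me signal Cd47, had 0.05 (adjusted p = 0.820) and Cd47 itself 0.21 (adjusted p = 0.152), and Adam17, the protease that sheds Mertk, 0.07 (adjusted p = 0.711).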

How the data were processed

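The authors deposited 1 linear intensity for each Illumina probe on each of 6 arrays. Their 6 sorted columns differed by at most 0.472%, so the deposited intensities had been quantile-normalized between arrays, with background left in (lowest 96.7). No source used here names the software. Another table of scanner signals has 24 columns named by chip position, which match no label, and was not used. Its detection p-values were therefore not used either.

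Probes were named from the platform annotation: 34885 have 1 gene symbol, 18 several and 10378 none. The floor, an intensity of 128, is the most frequent log2 value plus 3 standard deviations of the mirrored values below it. Probes above it on at least 3 arrays were kept (18571), and 10258 genes were represented by their brightest kept probe. The ages were compared on the log2 scale with limma 3.58.1 (lmFit, eBayes; R 4.3.3), two-sided, by age only, with Benjamini-Hochberg adjustment over all genes, or over all kept probes in the probe fit, at a threshold of 0.05. As a check of the code alone, the fit was run on independent normal values simulated with its own variances and known shifts. Such values cannot show how well the model suits these arrays. Differences are P1 minus P14 with limma's SE. Precision is limited by the number of arrays.

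The members and lists were chosen with earlier results of these data known. Named genes are all members, up to 3 genes with the largest difference past the threshold in each other list (or the 2 brightest where no gene passed), and Itgam and Adgre1. Other genes were named after their values were seen: Csf1r, Cd14, Lyz2, Itgb5, Itgav, Itgb3, Dock2, Dock4, Crk, Elmo2, Socs3, Twf1, Adam17, Mpo, Ngp, Retnlg, S100a8, Myl7 and the markers below the filter. Tried in addition were other filters and probe rules, a trended robust variance, weights for arrays, a block for replicate number, normexp, cyclic loess and leaving out each array with probes unchanged.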

Additional observations from a re-analysis of the deposited data

How the results depend on the processing

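Gene results were recomputed under 15 alternatives, and single probes under 12 or 13, since the mean of probes and the probe of largest variance give a probe no value of its own and a stricter floor removed 2 probes. Over 55 log2 differences, 721 recomputed values kept direction and side of the threshold, 51 lost a call, 8 gained one and 13 changed sign. With all arrays kept, the counts of calls moved by at most 1.5 times: the genes called were 1858 to 2492, beside 2103, and the member genes called were 4 or 5. Leaving out single arrays gave 1054 to 1806 genes called (518 to 918 higher and 536 to 888 lower), with the fewest without P1 replicate 3. It gave 3 to 5 member genes called, 1 to 3 of them higher and 2 lower, and 4 to 7 member probes called, 2 to 4 higher and 2 to 4 lower. Of the sign changes 12 came from leaving out an array, in genes or probes near 0, and 1 was in Crk, a called gene. Without single arrays Sirpa ranged from -0.040 to 0.18, Itgav from -0.073 to 0.30, Elmo2 from -0.090 to 0.088, Adam17 from -0.047 to 0.16, Elmo1 probe 12 from -0.015 to 0.048 and Elmo1 probe 13 from -0.075 to 0.017. Crk had 0.37 with its brightest probe and -0.0053 as the mean of its probes. The causes were not tested. Scanner signals with detection p could not be run, since their columns match no sample by name.

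The replicate numbers were not shown to pair the arrays: deviations of same-numbered arrays from their group means correlated across genes at 0.16, 0.07 and 0.13, although each array correlated best with its own number, a hint from the data and not the design. With the replicate number as a block, 2191 genes, 5 member genes and 8 member probes were called, and Gas6 passed (0.59, adjusted p = 0.00864), while Socs3 (adjusted p = 0.0705) and Dock4 (0.0545) did not.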
